A study of Homo sapiens with 12 samples.

Results

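The genes described here carry out excision, mismatch, end-joining and translesion repair of DNA. The set held 46 listed genes, taken by name together with every probe set annotated to exactly 1 of them. Of these, 43 had such a probe set, against 19775 genes with one on the array, and 42 were bright enough to be tested, among 10699 genes tested in all. They were measured in HK-2 cells, a line of immortalised human proximal tubular epithelial cells, on arrays that report 1 value per probe set on the log2 scale, so that a difference of 1 is a doubling. The 4 groups were cells given a low dose of Ota for 24 h, cells given its vehicle for 24 h, cells given Ota for 72 h and cells given the vehicle for 72 h, with 3 arrays each. The vehicle-treated cells are called control cells below. The concentration is not in the labels, nor is the vehicle named or Ota spelled out, although OTA is a common short form of ochratoxin A, a mould toxin that damages the kidney. All groups came from 1 cell line kept in a hormone-supplemented medium and exposed near confluency. Within a group the 3 arrays are given as biological replicates, with no word on what their cultures shared, and the p-values therefore reflect only the spread among these arrays, which may be technical.

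Cells remove damaged DNA along several routes. In nucleotide excision repair a bulky lesion is found, the strand is opened and nucleases cut out a short piece that is then resynthesised. In base excision repair a glycosylase removes a single altered base, a nuclease cuts the backbone at the empty site, and polymerases and ligases fill and seal the gap. Mismatch repair corrects errors of replication, end joining reseals broken ends, and translesion polymerases copy past lesions that were not removed. Kidney tubule cells meet oxidised and alkylated bases because they handle and metabolise many toxic compounds, and several repair enzymes are made mainly in dividing cells, where they also serve replication.

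Over the genes tested, arrays of the same group had correlations between 0.986 and 0.994, and no 2 arrays held the same values. RNA quality, read as the 3' minus the 5' control probe set of actin (log2), ran from 1.06 to 1.30 in Ota cells and from 0.89 to 1.24 in control cells at 24 h, and from 1.19 to 1.33 in Ota cells and from 1.00 to 1.33 in control cells at 72 h. All 5 epithelial markers were above the detection filter (a log2 value above 4 on at least 3 arrays). Only 2 of 12 proximal tubule markers were, DPP4 and PDZK1, while LRP2, CUBN, AQP1, SLC34A1 and ANPEP lay near the floor of the scale, so the labelled cell type was not borne out by those defining markers. None of 5 endothelial and none of 4 leukocyte markers passed, against 2 of 6 fibroblast markers (COL1A1 and DCN) and 2 of 4 podocyte markers (PODXL and SYNPO). The summed linear level of the fibroblast markers ran from 2863 to 4092 in Ota cells and from 2730 to 4658 in control cells at 24 h, and from 1826 to 2632 in Ota cells and from 914 to 1433 in control cells at 72 h. That of the proximal tubule markers ran from 5099 to 5276 in Ota cells and from 4284 to 5252 in control cells at 24 h, and from 6756 to 7436 in Ota cells and from 5017 to 5711 in control cells at 72 h. At 72 h both sums were thus higher in Ota cells than in control cells, without overlap. The epithelial sum went the other way at 72 h, from 21298 to 23759 in Ota cells and from 24659 to 25576 in control cells. At 24 h the epithelial sums of Ota and control cells overlapped. The part of these markers in the changes of the repair genes was not tested.

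At 24 h most of the repair genes that changed were lower in Ota cells, and 22 of 42 did not pass the test. A gene was called changed where limma's moderated test, fitted over all 12 arrays and adjusted by the Benjamini-Hochberg method over all 10699 genes, gave an adjusted p below 0.05. Of the 42 repair genes, 18 fell and 2 rose in Ota cells against control cells, while 21.6% of all genes tested fell and 9.44% rose. The median log2 difference was -0.13 over the repair genes and -0.06 over all genes. Shifting every array to a common median moved the median of all genes to 0.07 and that of the repair genes to -0.01, and 13 repair genes then fell and 4 rose. Without control replicate 3 at 24 h, 14 fell and 4 rose.

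At 72 h the balance was different. Of the same 42 genes, 11 rose and 8 fell in Ota cells against control cells, while 17.1% of all genes rose and 14.9% fell. The median difference was 0.18 over the repair genes and 0.01 over all genes. The repair gene median was 0.06 without control replicate 3 at 72 h, 0.10 without Ota replicate 1 at 72 h and 0.09 after a repeated quantile normalization. Without Ota replicate 3 at 72 h 12 rose and 5 fell, and without control replicate 2 at 72 h 10 rose and 5 fell. The plot of all tested members shows the genes by their step of repair.

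**Figure D1:**
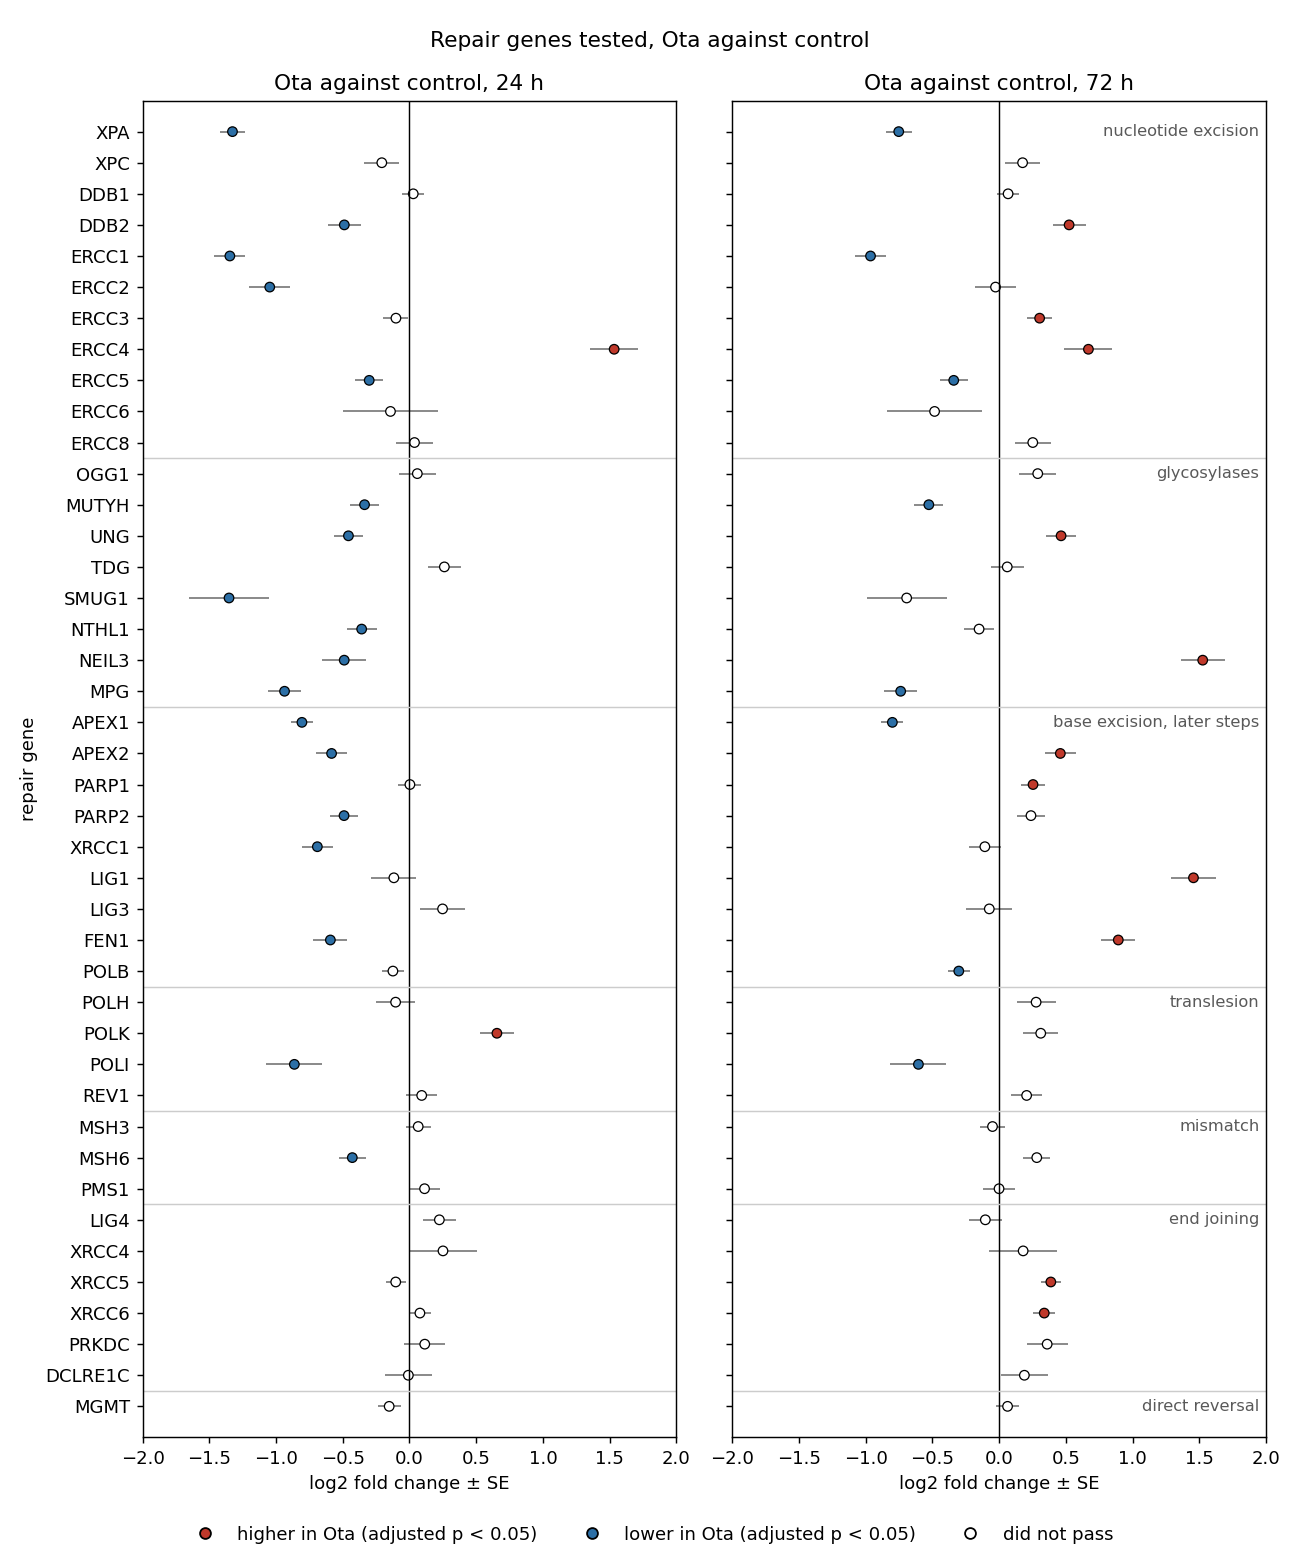
Log2 fold change of each of the 42 tested repair genes in Ota cells against control cells at 24 h (left) and 72 h (right), with the standard error of the fit, grouped by repair role from top to bottom. At 24 h 18 genes lie to the left of 0 as filled points and 2 to the right (ERCC4 and POLK), and at 72 h 8 lie to the left and 11 to the right.

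Among the genes of nucleotide excision repair, 5 of 11 fell and 1 rose at 24 h, beside 21.6% and 9.44% of all genes. At 72 h 3 fell and 3 rose, beside 14.9% and 17.1% of all genes. The falls included XPA, which binds the opened lesion and holds the incision complex together, and ERCC1, the partner that positions the nuclease ERCC4 at the junction to be cut. XPA stood at 7.22, 7.03 and 7.37 in Ota cells at 24 h, against 8.46, 8.56 and 8.58 in control cells. By 72 h XPA was at 8.56, 8.48 and 8.49 in Ota cells and 9.18, 9.35 and 9.25 in control cells. The Ota arrays lay below the control arrays at both times, and both groups were higher at 72 h than at 24 h. XPA was 0.399 times the control level at 24 h (log2 fold change -1.33 ± 0.10 (SE), adjusted p = 4.33e-06) and 0.594 times at 72 h (-0.75 ± 0.10, adjusted p = 0.000208). The response was smaller at 72 h by 0.57 ± 0.14 on the log2 scale (adjusted p = 0.0138).

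ERCC1 stood at 7.59, 7.56 and 7.63 in Ota cells at 24 h, against 8.84, 9.23 and 8.74 in control cells. After 72 h its values were 7.94, 8.02 and 7.92 in Ota cells, against 8.93, 8.86 and 8.98 in control cells. The groups were well apart at both times. ERCC1 fell by 1.35 ± 0.12 on the log2 scale at 24 h (adjusted p = 1.2e-05) and fell by 0.96 ± 0.12 at 72 h (adjusted p = 0.000136). A further probe set of ERCC1, 203719_at, gave -1.30 and -1.22 at the same times (adjusted p = 8.05e-05 and 0.000212), while 228131_at went the other way, by 0.67 at 24 h and 0.55 at 72 h (adjusted p = 0.00466 and 0.0152 in the fit over probe sets). ERCC1 overlaps POLR1G in the RefSeq annotation, and which transcript each probe set reads was not tested. The mean of the probe sets of ERCC1 gave -0.66 at 24 h and -0.54 at 72 h (adjusted p = 0.000588 and 0.00197).

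ERCC4, the nuclease that ERCC1 positions, moved in the opposite direction. Its values were 6.53, 6.72 and 6.09 in Ota cells at 24 h, against 5.04, 4.61 and 5.09 in control cells. They were 5.71, 5.94 and 5.47 in Ota cells at 72 h, against 5.12, 5.05 and 4.94 in control cells. Every Ota array was above every control array of its time. ERCC4 rose by 1.53 ± 0.18 at 24 h (2.89 times the control level, adjusted p = 9.65e-05) and by 0.67 ± 0.18 at 72 h (1.59 times, adjusted p = 0.0155). The difference between the times, -0.86 ± 0.25, passed the test (adjusted p = 0.033), although it was lost on leaving out any of 7 arrays, with an adjusted p of at most 0.0751 (without Ota replicate 3 at 72 h). The mean of its probe sets gave 0.83 at 24 h and 0.33 at 72 h, with ERCC4 called at both times (adjusted p = 0.000332 and 0.0476), and -0.50 for the difference, which did not pass (adjusted p = 0.0511). The call at 72 h was lost without Ota replicate 2 of that time (adjusted p = 0.0593) and without control replicate 3 (0.0553).

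ERCC2, a helicase of the TFIIH complex that opens the strand, fell at 24 h. Its values were 5.87, 5.76 and 6.14 in Ota cells at 24 h, against 7.32, 6.95 and 6.64 in control cells. At 72 h they were 6.43, 6.42 and 6.36 in Ota cells and 6.43, 6.43 and 6.43 in control cells. The Ota arrays were below the control arrays at both times, by a wide margin at 24 h and by a very small one at 72 h. The log2 fold change was -1.05 ± 0.15 at 24 h (adjusted p = 0.000384) and -0.03 ± 0.15 at 72 h (adjusted p = 0.914). The difference between the times was 1.02 ± 0.22 (adjusted p = 0.00774). Its other tested probe set, 235399_at, gave -0.09 ± 0.37 at 24 h and did not pass, and the mean of its probe sets gave -0.57 at 24 h (adjusted p = 0.0727).

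DDB2, a sensor of bulky photolesions whose gene is a target of p53, fell at 24 h and rose at 72 h. It stood at 7.54, 7.63 and 7.50 in Ota cells at 24 h, against 7.85, 8.29 and 8.00 in control cells. By 72 h the values were 7.69, 7.97 and 7.72 in Ota cells, against 7.18, 7.39 and 7.23 in control cells. The Ota arrays lay below the control arrays at 24 h and above them at 72 h, without overlap. The log2 fold change was -0.49 ± 0.12 at 24 h (adjusted p = 0.0107) and 0.52 ± 0.12 at 72 h (adjusted p = 0.00759), a difference of 1.01 ± 0.17 (adjusted p = 0.00281). Of 15 other p53 targets tested, 1 rose and 1 fell at 24 h and 1 rose and 2 fell at 72 h, with medians of -0.12 and -0.10. Of all genes tested, 9.44% rose and 21.6% fell at 24 h, and 17.1% rose and 14.9% fell at 72 h. The part of p53 in the changes of DDB2 was not tested. Once all arrays had been given the same median, the fall of DDB2 at 24 h no longer passed (-0.36, adjusted p = 0.0561).

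ERCC5, the nuclease that makes the other incision, averaged 8.91 ± 0.03 in Ota cells and 9.21 ± 0.10 in control cells at 24 h (SD, n = 3 each), and 9.04 ± 0.04 in Ota cells and 9.38 ± 0.21 in control cells at 72 h. It fell by 0.30 at 24 h (adjusted p = 0.0499) and fell by 0.34 at 72 h (adjusted p = 0.03). With the replicate number as a block the adjusted p at 24 h was 0.0507, and leaving out any of 10 arrays lost that call (adjusted p up to 0.137, without control replicate 3 at 24 h). The 72 h call was lost without any of 5 arrays (adjusted p up to 0.104, without control replicate 2 at 72 h). ERCC3, the other TFIIH helicase of the set, averaged 8.13 ± 0.02 in Ota cells and 7.82 ± 0.15 in control cells at 72 h and rose by 0.30 ± 0.09 (adjusted p = 0.0286). That call was lost without any of 5 arrays (adjusted p up to 0.107, without control replicate 3 at 72 h). The damage sensors XPC and DDB1 and the transcription-coupled factors ERCC6 and ERCC8 did not pass at either time, with log2 differences between -0.48 (ERCC6 at 72 h) and 0.25 (ERCC8 at 72 h). These are readings of the brightest probe sets. In the fit over probe sets, 1 of the 3 tested probe sets of ERCC8 was called lower at 72 h.

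Of the 8 glycosylases tested, 6 fell and none rose at 24 h, beside 21.6% and 9.44% of all genes. At 72 h 2 fell and 2 rose, beside 14.9% and 17.1% of all genes. MPG, which removes alkylated purines, and MUTYH, which removes adenine placed opposite oxidised guanine, fell at both times. MPG stood at 7.28, 7.12 and 7.28 in Ota cells at 24 h, against 8.02, 8.41 and 8.07 in control cells. By 72 h MPG was at 7.76, 8.08 and 7.85 in Ota cells, against 8.56, 8.62 and 8.72 in control cells. The groups did not overlap at either time. MPG fell by 0.94 ± 0.12 at 24 h (adjusted p = 0.000182) and fell by 0.74 ± 0.12 at 72 h (adjusted p = 0.000988).

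MUTYH had 7.31, 7.40 and 7.61 in Ota cells at 24 h, against 7.87, 7.59 and 7.87 in control cells, and 7.71, 7.67 and 7.68 in Ota cells at 72 h, against 8.10, 8.21 and 8.34 in control cells. The highest Ota array at 24 h was just above the lowest control array, whereas the groups were apart at 72 h. MUTYH changed by -0.34 ± 0.11 on the log2 scale at 24 h (adjusted p = 0.0349) and -0.53 ± 0.11 at 72 h (adjusted p = 0.00365). Leaving out any of 4 arrays lost the 24 h call (adjusted p up to 0.125, without Ota replicate 1 at 24 h). Once all arrays had been given the same median, the 24 h falls of MUTYH, ERCC5 and NTHL1 did not pass (log2 fold change -0.21, -0.18 and -0.23, adjusted p = 0.132, 0.196 and 0.114).

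**Figure D2:**
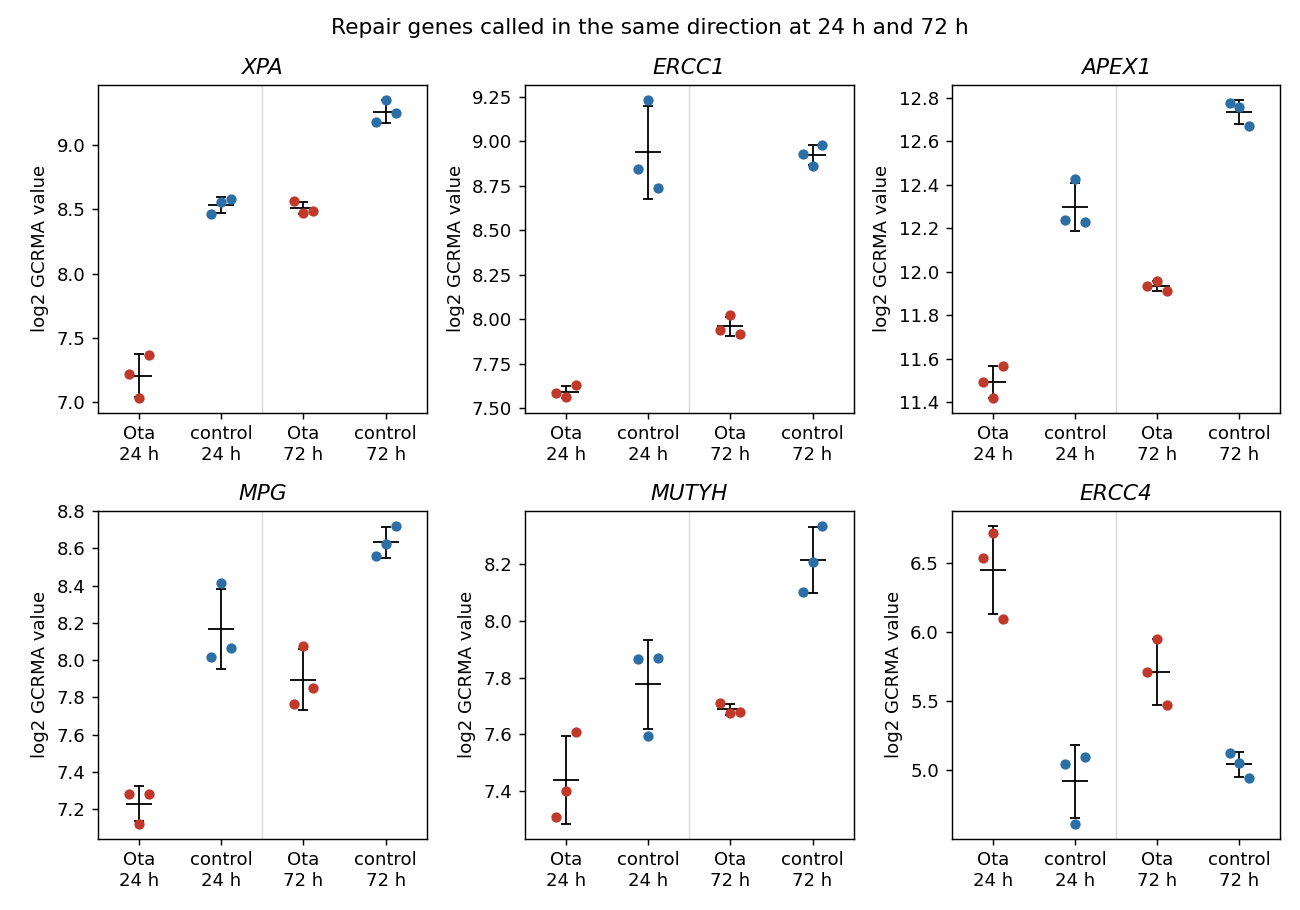
Log2 value on each array (points) with the mean and SD (bars) of 6 repair genes called in the same direction at both times, in Ota and control cells at 24 h and 72 h. XPA, ERCC1, APEX1 and MPG lie lower on every Ota array than on every control array of the same time, ERCC4 lies higher, and the MUTYH groups touch at 24 h.

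SMUG1 and UNG both remove uracil from DNA, SMUG1 outside replication and UNG largely at replication forks, and they did not move alike. SMUG1 stood at 4.90, 3.73 and 4.94 in Ota cells at 24 h, against 6.35, 5.44 and 5.84 in control cells. Its values at 72 h were 5.40, 5.35 and 5.54 in Ota cells, against 5.92, 6.34 and 6.11 in control cells. All Ota values were lower, and the Ota values at 24 h were close to the detection filter. SMUG1 fell by 1.35 ± 0.30 at 24 h (adjusted p = 0.00547), and its log2 fold change of -0.69 ± 0.30 at 72 h did not pass (adjusted p = 0.102). Over the alternatives the adjusted p of SMUG1 at 72 h ran from 0.00621 to 0.244, so the call there depended on the processing. Its probe set 223684_s_at fell at both times (-0.98 ± 0.16 and -0.71 ± 0.16, adjusted p = 0.000933 and 0.00818), and the mean of its probe sets gave -0.77 at 24 h (adjusted p = 0.00185).

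UNG stood at 9.90, 9.67 and 9.73 in Ota cells at 24 h, against 10.27, 10.12 and 10.28 in control cells. By 72 h UNG was at 9.72, 9.74 and 9.56 in Ota cells, against 9.34, 9.28 and 9.00 in control cells. The Ota arrays were lower at 24 h and higher at 72 h, without overlap. UNG changed by -0.46 ± 0.11 on the log2 scale at 24 h (adjusted p = 0.00797) and 0.46 ± 0.11 at 72 h (adjusted p = 0.00772), and the difference was 0.92 ± 0.15 (adjusted p = 0.00247).

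NEIL3, a glycosylase for oxidised bases that is made mainly in dividing cells, had the largest difference between times of the 42 genes. Its values were 8.00, 7.53 and 8.22 in Ota cells at 24 h, against 8.44, 8.27 and 8.51 in control cells. At 72 h they were 7.64, 7.51 and 7.84 in Ota cells, against 5.99, 6.31 and 6.11 in control cells. The control arrays at 72 h stood far below all others. The log2 fold change was -0.49 ± 0.17 at 24 h (adjusted p = 0.0426) and 1.52 ± 0.17 at 72 h (2.88 times the control level, adjusted p = 7.55e-05), and the difference was 2.01 ± 0.23 (adjusted p = 0.000338). The 24 h call was lost on leaving out any of 7 arrays (adjusted p up to 0.157, without Ota replicate 2 at 24 h), while the call at 72 h held under every alternative run.

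NTHL1, which removes oxidised pyrimidines, averaged 6.42 ± 0.21 in Ota cells and 6.78 ± 0.10 in control cells at 24 h (SD, n = 3 each). It fell by 0.36 ± 0.11 (adjusted p = 0.0323), a call lost without any of 4 arrays (adjusted p up to 0.115, without Ota replicate 3 at 24 h). OGG1, the glycosylase for oxidised guanine, and TDG, which removes thymine from mismatches, did not pass at either time. The brightest probe set of OGG1 gave 0.06 ± 0.14 at 24 h, while 205301_s_at gave -0.95 ± 0.21 and passed (adjusted p = 0.00608), so the reading of OGG1 depended on the probe set. NEIL2 was below the filter, with values between 2.78 and 2.99. NEIL1, PMS2 and NHEJ1 were represented only by probe sets annotated to several genes, which were not used.

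Of the 9 genes for the later steps of base excision repair, 5 fell and none rose at 24 h, beside 21.6% and 9.44% of all genes. At 72 h 4 rose and 2 fell, beside 17.1% and 14.9% of all genes. APEX1, the main nuclease at empty sites, fell by nearly the same amount at both times. It stood at 11.49, 11.42 and 11.56 in Ota cells at 24 h, against 12.24, 12.42 and 12.23 in control cells. Its values at 72 h were 11.93, 11.96 and 11.91 in Ota cells, against 12.77, 12.76 and 12.67 in control cells. The spread within each group was small beside the distance between groups. APEX1 was 0.572 times the control level at 24 h (-0.81 ± 0.08, adjusted p = 3.82e-05) and 0.574 times at 72 h (-0.80 ± 0.08, adjusted p = 6.05e-05).

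XRCC1, the scaffold that gathers the enzymes at a single-strand break, fell at 24 h. Its values were 7.15, 6.77 and 6.97 in Ota cells at 24 h, against 7.63, 7.55 and 7.79 in control cells. At 72 h they were 7.52, 7.30 and 7.49 in Ota cells and 7.66, 7.56 and 7.41 in control cells. The groups were separate at 24 h and overlapped at 72 h. The log2 fold change was -0.69 ± 0.12 at 24 h (adjusted p = 0.00109) and -0.11 ± 0.12 at 72 h (adjusted p = 0.523). The difference of 0.58 ± 0.17 (adjusted p = 0.0287) was lost without any of 7 arrays, with an adjusted p of at most 0.0718 (without Ota replicate 1 at 72 h).

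PARP1 and PARP2 sense strand breaks and mark them with poly(ADP-ribose). PARP2 had 9.20, 9.44 and 9.53 in Ota cells at 24 h, against 9.87, 9.80 and 9.98 in control cells, and 9.36, 9.44 and 9.36 in Ota cells at 72 h, against 9.08, 9.30 and 9.07 in control cells. The groups did not overlap at either time and their order was turned round between the times. PARP2 fell by 0.49 ± 0.10 at 24 h (adjusted p = 0.00422), its log2 fold change of 0.24 ± 0.10 at 72 h did not pass (adjusted p = 0.105), and the difference was 0.73 ± 0.15 (adjusted p = 0.00647). Its 3 probe sets all fell at 24 h. PARP1 averaged 10.15 ± 0.09 in Ota cells and 9.89 ± 0.10 in control cells at 72 h and rose by 0.25 ± 0.09 (adjusted p = 0.0438), a call lost without any of 8 arrays (adjusted p up to 0.14, without control replicate 2 at 72 h). POLB, the gap-filling polymerase, averaged 8.95 ± 0.06 in Ota cells and 9.25 ± 0.05 in control cells at 72 h and fell by 0.30 ± 0.08 (adjusted p = 0.0166). Without Ota replicate 3 or control replicate 2 at 72 h its adjusted p was 0.0611 or 0.051, and the mean of its probe sets gave -0.13 (adjusted p = 0.114).

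FEN1, LIG1 and APEX2 also serve replication, and all 3 rose at 72 h. FEN1, the nuclease that trims displaced flaps and the ends of Okazaki fragments, had 9.87, 9.39 and 9.85 in Ota cells at 24 h, against 10.31, 10.33 and 10.25 in control cells. At 72 h it had 9.91, 9.90 and 9.66 in Ota cells, against 8.89, 9.02 and 8.88 in control cells. The Ota arrays were all below the control arrays at 24 h and all above them at 72 h. FEN1 fell by 0.59 ± 0.13 at 24 h (adjusted p = 0.00469) and rose by 0.89 ± 0.13 at 72 h (adjusted p = 0.000424), a difference of 1.49 ± 0.18 (adjusted p = 0.000427). Its 2 probe sets were called the same way at both times.

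LIG1, which seals Okazaki fragments and repair patches, stood at 8.34, 8.69 and 8.33 in Ota cells at 24 h, against 8.51, 8.63 and 8.57 in control cells. By 72 h LIG1 was at 8.24, 8.05 and 8.00 in Ota cells, against 6.68, 7.00 and 6.25 in control cells. The groups overlapped at 24 h and were far apart at 72 h. The log2 fold change was -0.12 ± 0.17 at 24 h (adjusted p = 0.649) and 1.46 ± 0.17 at 72 h (2.74 times the control level, adjusted p = 0.000108), and the difference was 1.57 ± 0.24 (adjusted p = 0.0015). LIG3, the ligase that works with XRCC1, did not pass at either time on its brightest probe set (0.25 ± 0.18 at 24 h), whereas its probe sets 204123_at and 207348_s_at fell at 24 h, with log2 fold changes of -1.04 ± 0.14 and -1.23 ± 0.20 (adjusted p = 0.000173 and 0.000805).

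APEX2, a relative of APEX1 that works with the replication clamp, had 6.60, 6.35 and 6.63 in Ota cells at 24 h, against 7.32, 6.90 and 7.12 in control cells, and 6.55, 6.73 and 6.64 in Ota cells at 72 h, against 6.15, 6.13 and 6.26 in control cells. The Ota values were alike at the 2 times, and the control values lay above them at 24 h and below them at 72 h. It fell by 0.58 ± 0.12 at 24 h (adjusted p = 0.00302) and rose by 0.46 ± 0.12 at 72 h (adjusted p = 0.0118), a difference of 1.04 ± 0.17 (adjusted p = 0.0019). Its probe set 238813_at rose at both times, by 0.85 ± 0.17 and 1.38 ± 0.17 (adjusted p = 0.00247 and 0.000173), so the direction at 24 h depended on the probe set. The mean of both probe sets gave 0.14 at 24 h (adjusted p = 0.337) and 0.92 at 72 h (adjusted p = 7.05e-05).

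**Figure D3:**
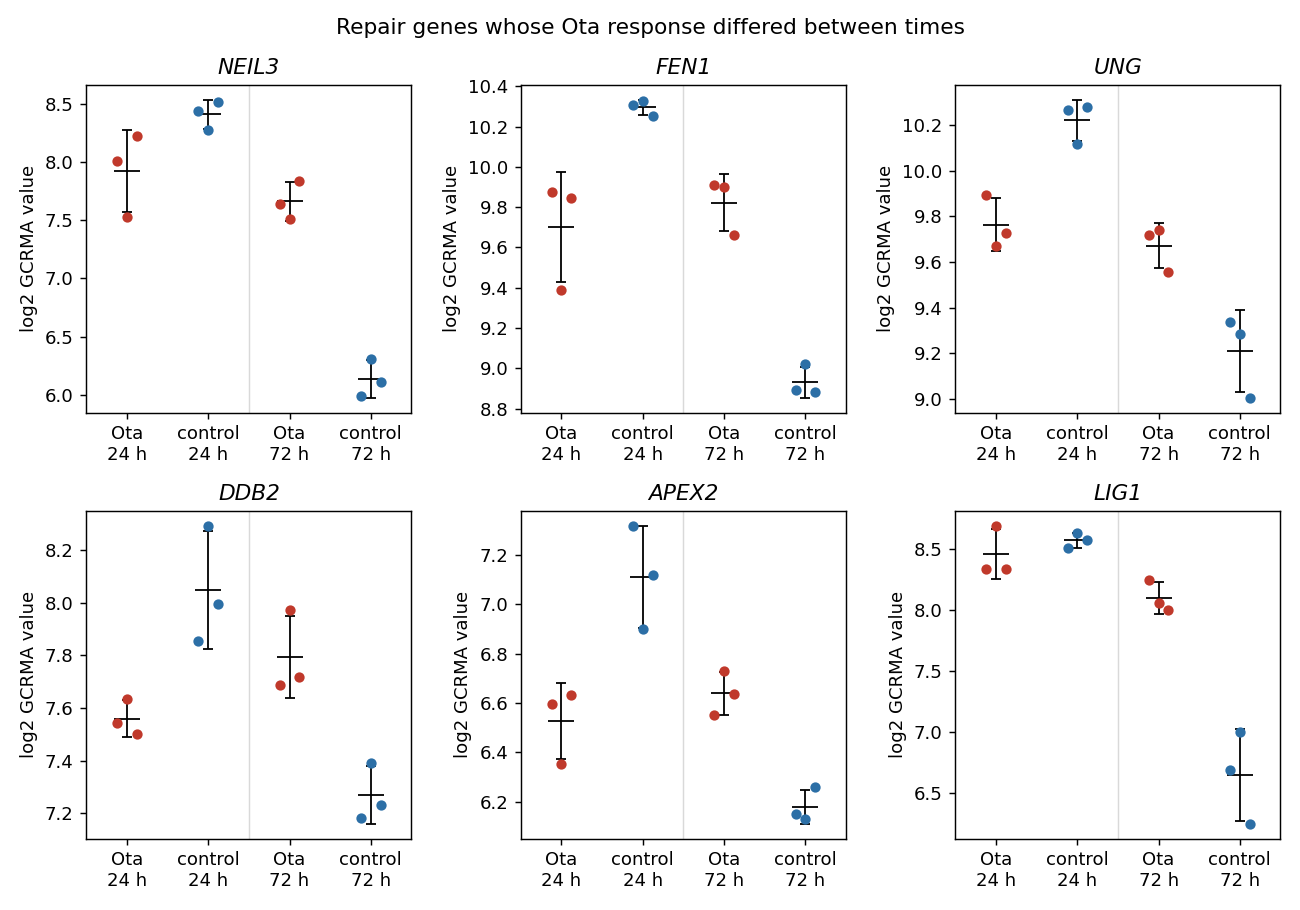
Log2 value on each array (points) with the mean and SD (bars) of 6 repair genes whose response to Ota differed between the times, in Ota and control cells at 24 h and 72 h. None of the 6 passed for Ota cells at 72 h against 24 h, and the control arrays at 72 h stand below the Ota arrays for all 6 genes.

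A fall at 24 h with a rise at 72 h was found for 5 genes, DDB2, UNG, NEIL3, APEX2 and FEN1, a pattern held by 1.78% of all genes tested. The 24 h fall of APEX2 reversed with the mean of its probe sets. That of NEIL3 was lost on leaving out any of 7 arrays, and that of DDB2 with all arrays at a common median. Another 7 genes fell at both times (XPA, ERCC1, ERCC5, MUTYH, MPG, APEX1 and POLI), against 7.26% of all genes. Of these, ERCC5, MUTYH and POLI lost a call under some alternatives. The responses at the 2 times differed, higher at 72 h, for 13 of the 42 repair genes and lower for 1 (ERCC4), while 15.5% of all genes were higher and 5.79% lower. The median of this difference was 0.24 over the repair genes and 0.09 over all genes.

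The level in each treatment also changed between the times. At 72 h against 24 h, 10 of the 42 repair genes rose and 4 fell in Ota cells, while 22.2% of all genes rose and 9.99% fell. That split was 6 and 6 once all arrays had been given the same median, and 6 and 4 after a repeated quantile normalization or with no filter. Without Ota replicate 2 at 24 h it was 6 and 5, and without any 1 of the 3 Ota arrays at 72 h it was 6 and 4. In control cells 9 rose and 15 fell over the same time, while 22.7% of all genes rose and 23.6% fell. Without control replicate 2 at 24 h 5 rose and 15 fell. The log2 changes in Ota cells were -0.26 for NEIL3, -0.35 for LIG1, 0.12 for FEN1 and -0.09 for UNG, and none of these passed. In control cells they were -2.27 ± 0.17 for NEIL3 (adjusted p = 2e-06), -1.93 ± 0.17 for LIG1 (5.77e-06), -1.36 ± 0.13 for FEN1 (9.21e-06) and -1.01 ± 0.11 for UNG (2.39e-05). The control cells therefore stood at lower levels of these 4 genes at 72 h, the level their 72 h responses are set against. XPA rose over time in Ota cells by 1.30 ± 0.10 (adjusted p = 1.67e-05) and in control cells by 0.73 ± 0.10 (adjusted p = 0.000106).

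**Figure D4:**
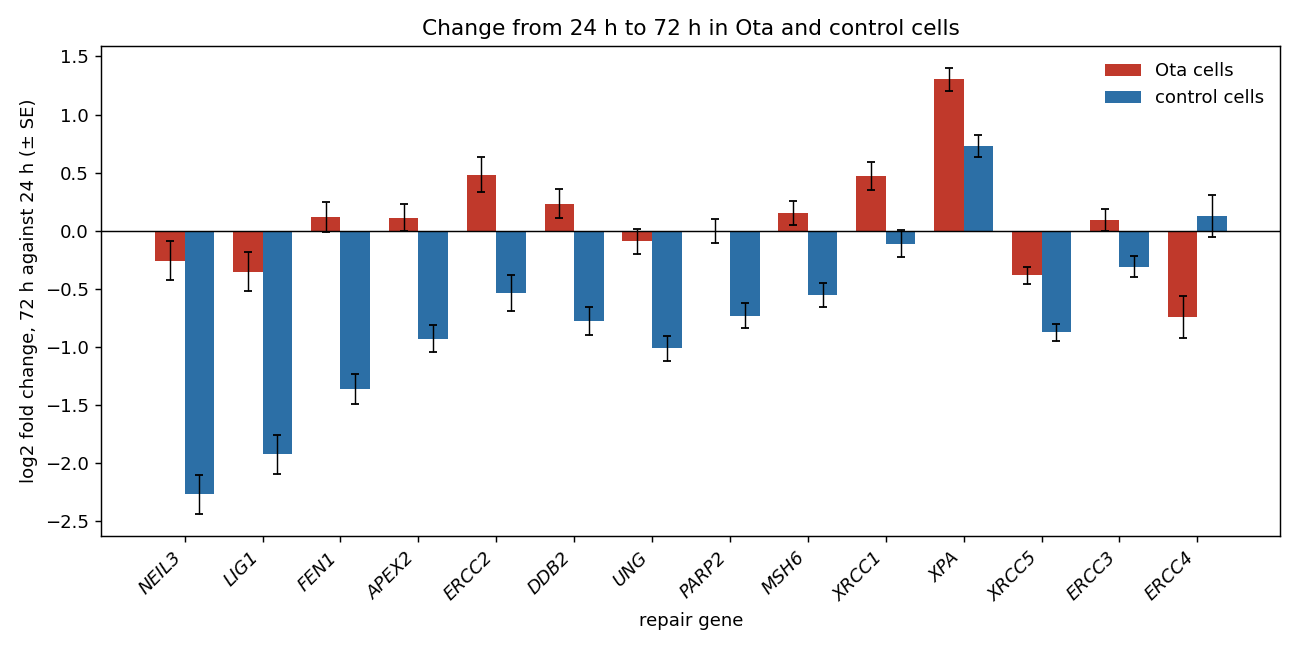
Log2 fold change at 72 h against 24 h in Ota cells (left bar of each pair) and control cells (right bar), with the standard error of the fit, for the 14 repair genes whose response to Ota differed between the times. The Ota bars of NEIL3, LIG1 and FEN1 lie between -0.35 and 0.12, and the control bars of these genes reach -2.27, -1.93 and -1.36.

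Genes that mark the cell cycle were read beside the repair genes. Of 18 such markers, 8 fell and 1 rose in Ota cells at 72 h against 24 h, with a median of -0.32. Of all genes tested, 9.99% fell and 22.2% rose. All 18 markers fell over time in control cells, with a median of -1.55, beside 23.6% of all genes. In Ota cells against control cells at 24 h, none rose and 6 fell, with a median of -0.22, beside 9.44% and 21.6% of all genes. At 72 h 17 rose and none fell, with a median of 0.84, beside 17.1% and 14.9%. The mean log2 level of the 18 markers ran from 10.57 to 10.66 over the Ota arrays and from 10.83 to 10.85 over the control arrays at 24 h, and from 10.13 to 10.26 over the Ota arrays and from 9.20 to 9.44 over the control arrays at 72 h. The Ota arrays were lower at 24 h and higher at 72 h. CCNE2, the cyclin of entry into S phase, rose by 2.11 ± 0.16 at 72 h (adjusted p = 9.93e-06), and MCM5 and MCM6, subunits of the replicative helicase, rose by 0.98 ± 0.10 and 0.86 ± 0.09. The part of the cell cycle in the repair genes' changes was not tested, and in whole cultures fewer cells with an RNA and less of it per cell cannot be told apart.

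The promoters of these genes are shown because the factors of the E2F family, which drive genes of DNA replication, bind a short word ahead of many such genes. Each line is the 120 bases before an annotated transcription start, read 5′ to 3′ on the gene's own strand, from RefSeq on GRCh38.p14. Capitals mark an E2F word (TTTGGCGC, TTTCGCGC, TTTCCCGC or TTTGCCGC) or a cell cycle homology word, CHR (TTTGAA or TTCGAA), searched on both strands. LIG1, UNG, NEIL3 and FEN1 rose at 72 h, MSH3 did not pass at either time, and XPA fell at both. LIG1 lies at chr19:48170345-48170464 on the minus strand, UNG at chr12:109098052-109098171 on the plus strand, NEIL3 at chr4:177309754-177309873 on the plus strand, FEN1 at chr11:61792791-61792910 on the plus strand, MSH3 at chr5:80654532-80654651 on the plus strand and XPA at chr9:97697341-97697460 on the minus strand.
LIG1: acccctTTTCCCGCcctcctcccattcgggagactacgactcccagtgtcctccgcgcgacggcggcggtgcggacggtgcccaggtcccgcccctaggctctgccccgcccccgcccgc
UNG: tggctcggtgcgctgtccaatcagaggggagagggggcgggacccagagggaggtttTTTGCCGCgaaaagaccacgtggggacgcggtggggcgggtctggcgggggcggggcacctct
NEIL3: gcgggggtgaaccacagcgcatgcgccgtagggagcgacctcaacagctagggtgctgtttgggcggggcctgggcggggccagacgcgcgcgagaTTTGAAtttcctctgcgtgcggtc
FEN1: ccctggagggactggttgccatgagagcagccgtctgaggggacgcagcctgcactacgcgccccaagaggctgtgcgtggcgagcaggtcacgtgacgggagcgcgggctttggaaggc
MSH3: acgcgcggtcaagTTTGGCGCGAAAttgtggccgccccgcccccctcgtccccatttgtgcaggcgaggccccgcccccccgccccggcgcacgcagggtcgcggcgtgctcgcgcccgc
XPA: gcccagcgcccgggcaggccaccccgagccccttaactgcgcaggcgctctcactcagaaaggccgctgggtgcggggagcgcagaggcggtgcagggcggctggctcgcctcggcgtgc

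The E2F word begins 114 bases before the start in LIG1 and 63 before it in UNG, and the CHR word of NEIL3 begins 24 before it. UNG has 2 annotated starts with a window, and the window not shown (chr12:109097347-109097596) holds no E2F word. In the counts below, a gene held a word if any of its windows did. In MSH3 the capitals are a pair of E2F words on opposite strands that overlap, 107 and 103 bases before the start. Over the 250 bases before the start, 6 of the 41 repair genes with a window held an E2F word (XPC, UNG, LIG1, POLI, MSH3 and PMS2), which is 14.6%, against 3.4% of 27305 genes. A CHR word was held by 6 of 41, again 14.6%, against 17.2% of genes. The 27305 genes are all those with a window of full length, whether tested here or not. They were not matched to the repair genes in kind or in number of windows. Of the 10 genes that rose at 72 h and had a window, 2 held an E2F word, and of the 7 that fell, 1 did. The words are descriptions of the sequence, and a word that is missing from a window says only that these letters were not in it.

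Of the 4 translesion polymerases, POLK rose and POLI fell at 24 h, beside 9.44% and 21.6% of all genes. POLI fell at 72 h, beside 14.9% of all genes. POLK, which copies past bulky guanine adducts, had 9.96, 10.38 and 9.97 in Ota cells at 24 h, against 9.43, 9.46 and 9.46 in control cells. At 72 h it had 9.89, 10.03 and 10.21 in Ota cells and 9.67, 9.90 and 9.63 in control cells. The groups were separate at 24 h and overlapped at 72 h. POLK rose by 0.66 ± 0.13 at 24 h (adjusted p = 0.00275), and its 0.31 ± 0.13 at 72 h did not pass (adjusted p = 0.0895). The mean of its probe sets gave 0.38 at 24 h (adjusted p = 0.00515).

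POLI, which inserts bases opposite damaged templates, averaged 5.41 ± 0.25 in Ota cells and 6.27 ± 0.37 in control cells at 24 h (SD, n = 3 each), and 6.29 ± 0.35 in Ota cells and 6.90 ± 0.09 in control cells at 72 h. It fell by 0.86 ± 0.21 at 24 h (adjusted p = 0.00866) and fell by 0.61 ± 0.21 at 72 h (adjusted p = 0.046), and the 72 h call was lost without any of 7 arrays (adjusted p up to 0.167, without Ota replicate 3 at 72 h). Its probe set 238992_at rose at 24 h, by 0.50 ± 0.14 (adjusted p = 0.0207), and the mean of both gave -0.18 at 24 h and -0.19 at 72 h and did not pass (adjusted p = 0.343 and 0.317). POLH, which copies past ultraviolet photoproducts, and REV1, the scaffold of the translesion complex, did not pass at either time on their brightest probe sets. Of the 4 tested probe sets of POLH, 1 was called lower at 24 h and 1 higher at 72 h. Of the 3 of REV1, 1 was called higher at 72 h.

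Of the 3 mismatch repair genes tested, 1 fell at 24 h, beside 21.6% of all genes, and none was called at 72 h. MSH6, which recognises single-base mismatches, averaged 11.37 ± 0.11 in Ota cells and 11.80 ± 0.08 in control cells at 24 h and fell by 0.43 ± 0.10 (adjusted p = 0.0077). At 72 h it averaged 11.53 ± 0.15 in Ota cells and 11.25 ± 0.11 in control cells (log2 fold change 0.28, adjusted p = 0.0541), and the difference of 0.71 ± 0.14 passed (adjusted p = 0.0065). The mean of its probe sets gave -0.22 at 24 h and 0.35 for the difference, and both passed (adjusted p = 0.0245 and 0.0232). MSH3, which recognises small loops, and PMS1 did not pass, although the MSH3 probe set 210947_s_at fell by 0.29 at 24 h (adjusted p = 0.0208).

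None of the 6 end-joining genes tested was called at 24 h by limma, and none had an unadjusted p below 0.05. Of all genes tested, 21.6% fell and 9.44% rose at that time. At 72 h XRCC5 and XRCC6, the subunits of the Ku ring that caps broken ends, rose, beside 17.1% of all genes. XRCC5 had 12.91, 12.86 and 13.00 in Ota cells at 24 h, against 13.01, 13.04 and 13.02 in control cells, and 12.60, 12.53 and 12.48 in Ota cells at 72 h, against 12.10, 12.17 and 12.17 in control cells. XRCC6 had 13.23, 13.23 and 13.07 in Ota cells at 24 h, against 13.08, 13.21 and 13.01 in control cells, and 12.64, 12.61 and 12.57 in Ota cells at 72 h, against 12.25, 12.30 and 12.26 in control cells. Both subunits were lower at 72 h in each treatment, and the Ota arrays then lay above the control arrays.

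XRCC5 rose by 0.39 ± 0.08 at 72 h (adjusted p = 0.00264) and XRCC6 by 0.34 ± 0.08 (adjusted p = 0.0093). At 72 h against 24 h the log2 change in Ota cells was -0.39 ± 0.08 for XRCC5 and -0.57 ± 0.08 for XRCC6, and in control cells it was -0.88 ± 0.08 and -0.83 ± 0.08. The difference between the responses passed for XRCC5 (0.49 ± 0.11, adjusted p = 0.00883). Averaging each gene's probe sets, dim ones included, gave 0.14 for XRCC5 and 0.11 for XRCC6 at 72 h, and neither passed (adjusted p = 0.247 and 0.275). PRKDC, the kinase that Ku recruits, gave 0.36 at 72 h (adjusted p = 0.097). The end-joining genes LIG4 and XRCC4, the ligase of this route and its partner, and the nuclease DCLRE1C did not pass. MGMT, which takes alkyl groups off guanine in a single step, gave -0.15 at 24 h and 0.06 at 72 h and did not pass.

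Read by probe set rather than by gene, 28 of the 74 member probe sets tested fell and 6 rose at 24 h, while 18.1% of all 22477 probe sets fell and 12.9% rose. At 72 h 15 rose and 10 fell, while 16.4% of all probe sets rose and 11.8% fell. Of the 21 genes with more than 1 probe set tested, 5 had all of them called the same way at 24 h and 2 at 72 h. Probe sets of 1 gene were called in both directions for 3 genes at 24 h (ERCC1, APEX2 and POLI) and for 1 at 72 h (ERCC1). In the annotation, 20 of the 46 genes overlap another protein-coding gene, among them MPG (NPRL3), APEX1 (PIP4P1), APEX2 (ALAS2), MUTYH (TOE1) and ERCC2 (KLC3), and whether any probe set reads the neighbour was not tested.

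**Figure D5:**
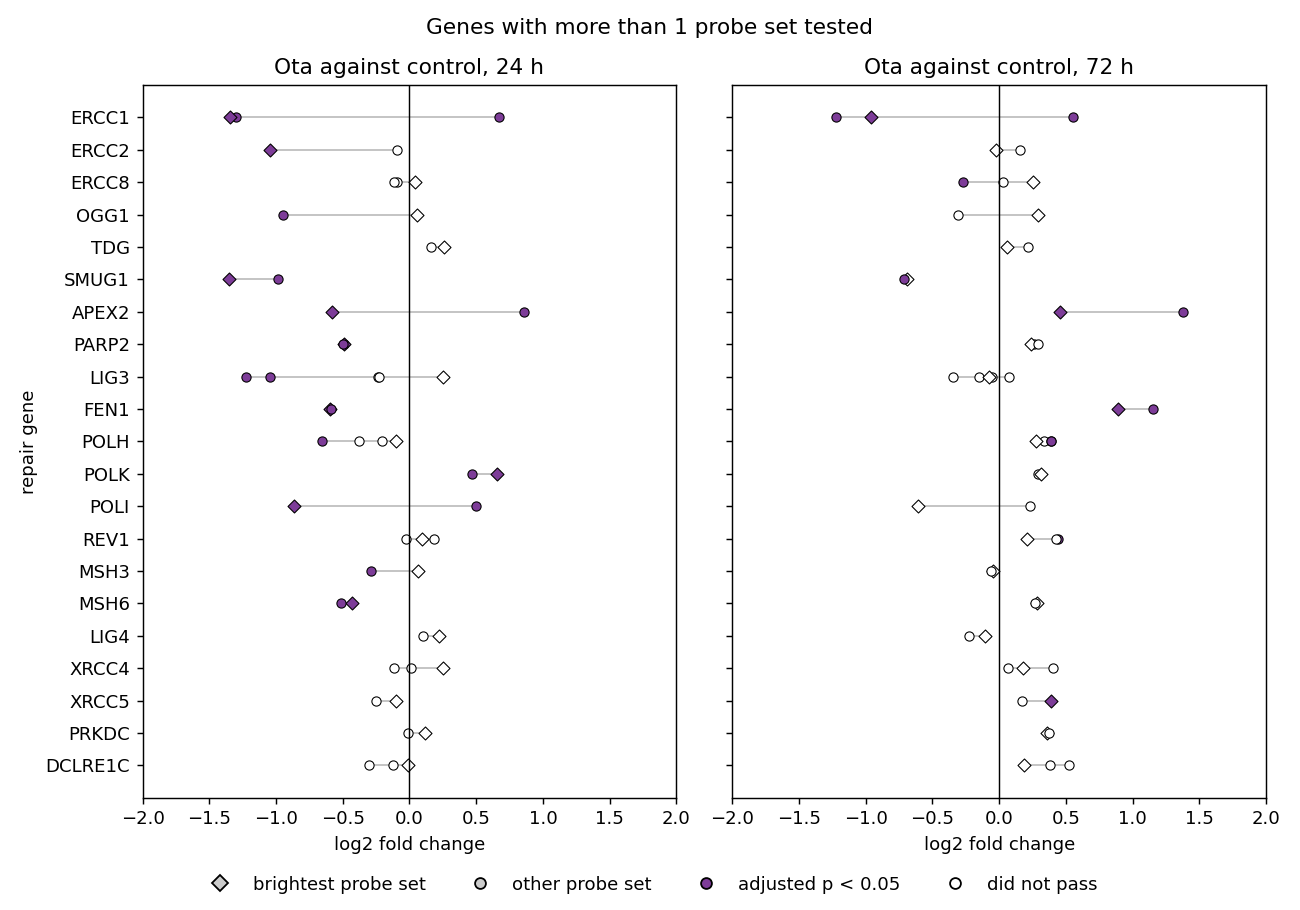
Log2 fold change of every tested probe set of the 21 genes with more than 1, in Ota cells against control cells at 24 h (left) and 72 h (right), with the brightest probe set as a diamond. Filled points passed in the fit over 22477 probe sets, and ERCC1, APEX2 and POLI have filled points on both sides of 0 at 24 h.

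The wider machinery of these routes, a list of 50 further repair genes of which 44 were tested, was read in the same fit. At 24 h 9 fell (20.5%) and 4 rose (9.09%), with a median of -0.11, beside 21.6% and 9.44% of all genes. At 72 h 16 rose (36.4%) and 8 fell (18.2%), with a median of 0.13, beside 17.1% and 14.9% of all genes. At 24 h RAD18, the ligase that marks the replication clamp for translesion synthesis, rose by 1.24 ± 0.15 (adjusted p = 9.23e-05), and RIF1, which steers breaks towards end joining, rose by 1.04 ± 0.14 (adjusted p = 0.000211). Of the 9 that fell, the 3 with the smallest p were CCNH, a subunit of the TFIIH kinase (-1.16 ± 0.14), ALKBH2, which reverses alkylation (-0.83 ± 0.11), and TP53BP1, which protects broken ends (-1.10 ± 0.18) (adjusted p = 0.00011, 0.000199 and 0.000753). GTF2H1, a core subunit of TFIIH, rose by 0.51 ± 0.10 (adjusted p = 0.00263).

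At 72 h RAD18 rose by 1.70 ± 0.15 (adjusted p = 1.83e-05), and POLQ, the polymerase of microhomology-mediated end joining, by 2.01 ± 0.19 (adjusted p = 2.66e-05). The control arrays at 72 h lay between 3.96 and 4.54 for POLQ and between 4.74 and 5.27 for RAD18. These values are close to the detection filter, so the sizes of changes set against them are uncertain. The replicative polymerase subunits POLE and POLE2 rose by 1.09 ± 0.13 and 1.33 ± 0.13, PCNA, the replication clamp, by 1.14 ± 0.14, and HLTF, a partner of RAD18, by 0.71 ± 0.08 (adjusted p between 4.49e-05 and 0.000146). In control cells at 72 h against 24 h, the log2 changes of POLQ, POLE, POLE2 and PCNA were -2.94, -1.51, -1.77 and -1.47. The levels of POLQ and of the replication genes in control cells moved in the same direction over time as those of NEIL3, LIG1 and FEN1.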

How the data were processed

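The deposited table holds log2 values for 54675 probe sets on each array, which the authors made using GCRMA according to the submitters' processing notes. This method subtracts background modelled on probe sequence, normalizes by quantiles and summarises each probe set, so low values sit on a floor, a shift of all RNA is hard to see, and fold changes near the floor are uncertain. The version of GCRMA is not given in the sources used here. There is no read depth on arrays, whose number sets the precision.

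Symbols came from the platform annotation, updated through gene identifiers with RefSeq on GRCh38.p14. Only the 41091 probe sets with 1 symbol were named, and 62 control probe sets were left out. Each gene was read from its brightest probe set (by the mean of all 12 arrays) and tested where that was above 4 on at least 3 arrays. Group means were fitted in limma 3.58.1 (R 4.3.3) by lmFit and eBayes, unmodified, with 8 residual degrees of freedom, Benjamini-Hochberg adjustment over all genes and calls at an adjusted p below 0.05. Errors of fold changes are standard errors (SE) and those of means are standard deviations (SD). The fit was tested on simulated data. Sequences came from RefSeq promoter windows, and figures were drawn with matplotlib under Python.

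Same-numbered Ota and control arrays deviated from their group means together at 24 h (r = 0.44, 0.32 and 0.45 across genes). Arrays of different numbers gave r between -0.29 and -0.08 at that time. Deviations from a group mean cancel within the group, so these negative values follow in part from the positive ones. By the same-numbered values, the numbers appear to pair the 24 h samples. At 72 h same-numbered arrays gave 0.11, 0.07 and 0.27, and the others between -0.26 and 0.15, which leaves pairing there unsettled. The main fit did not pair the arrays. The block alternative fits the same effect of a replicate number at both times.

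All 46 genes were accounted for by role. The 12 with the smallest p in each Ota comparison were given on every array, other called genes by their means, up to 6 of the further repair genes and up to 3 cell cycle markers per comparison were named by smallest p, and p53 targets were counted. The members and lists were chosen with earlier results of these data known. Single probe sets, and genes named for their change over time, were picked after their values were seen.

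Alternatives were averaging the probe sets of a gene, the brightest probe set without an _s_at or _x_at ending, no filter or one at 5, arrays shifted to a common median, repeated quantile normalization, the replicate number as a block, eBayes with trend and robust settings, only the arrays of a contrast, and each array left out.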

Additional observations from a re-analysis of the deposited data

Results flagged for a closer look

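For 14 repair genes the response to Ota differed between the times by limma's test of the difference itself (response at 72 h minus response at 24 h, log2 scale). It was 2.01 for NEIL3, 1.57 for LIG1, 1.49 for FEN1, 1.04 for APEX2, 1.02 for ERCC2, 1.01 for DDB2 and 0.92 for UNG. It was 0.73 for PARP2, 0.71 for MSH6, 0.58 for XRCC1, 0.57 for XPA, 0.49 for XRCC5 and 0.40 for ERCC3 (adjusted p = 0.0493, and up to 0.108 without control replicate 3 at 72 h, with the call lost without any of 10 arrays). It was -0.86 for ERCC4, the only one of the 14 whose response was lower at 72 h. Groups of 3 arrays are too small for a search for single arrays far from the rest.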

How the results depend on the processing

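The total counts of changed repair genes, both directions together, stayed within 1.5 times their reported value under every alternative run, whereas some counts in 1 direction did not and are given beside the main counts. Leaving out 1 array at a time gave 16 to 20 genes at 24 h, 14 to 20 at 72 h, 11 to 14 for the difference between responses, 20 to 25 for control cells over time and 10 to 14 for Ota cells over time. With the replicate block the counts were 19, 18, 13, 24 and 15, and the block lost ERCC5 at 24 h (adjusted p = 0.0507), PARP1 and POLI at 72 h (0.0513 and 0.0595) and the difference for ERCC3 (0.0553), and it lost no other call of these 3 comparisons. It gained PRKDC at 72 h (0.36, adjusted p = 0.009) and in Ota cells over time (-0.37, 0.00796). For the difference, ERCC4 is the 1 gene with a lower response at 72 h, and there were 0 such genes with the mean of probe sets, with no filter and without any of 7 arrays, and 2 without Ota replicate 3 at 24 h. The difference for ERCC3 was 0.26 (adjusted p = 0.155) with the arrays at a common median. A single call was reversed: APEX2 at 24 h was 0.14 (adjusted p = 0.337) when the mean of its probe sets was used, against -0.58. That mean also lost ERCC2 and POLI at 24 h, POLB, POLI, XRCC5 and XRCC6 at 72 h, and the differences for ERCC2, ERCC4 and XRCC5. In all, 7 of the 20 genes called at 24 h, 8 of the 19 at 72 h and 5 of the 14 differences lost their call in at least 1 alternative without turning round. Calls were also gained in some alternatives. The lowest adjusted p at 72 h was 0.00621 for SMUG1, 0.0277 for MSH6 and 0.0408 for POLK. For the difference of ERCC1 it was 0.0478. The cause was not tested. Signal near the floor limits SMUG1 and ERCC4, and POLQ and RAD18 among the further repair genes. NEIL2 could not be read.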
